A study of Mus musculus with 9 samples.

Results

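Astrocytes build their intermediate filaments from a small set of proteins, and the 4 genes for these proteins, Gfap, Vim, Nes and Synm, were followed in the brainstem of mice. They were taken by symbol from the deposited expression table, which lists 17187 genes, and each symbol matched 1 row. RNA was measured in 9 libraries of medullary brainstem, the lower brainstem that contains the raphe nuclei. The mice were labelled wild type and had received, 3 weeks earlier, a stereotactic injection of AAV2, an adeno-associated viral vector, into the cortex. In 5 libraries, the HIL6 group, the virus is labelled AAV2-HIL6-GFP and is named AAV2-hIL-6 in the design text; hIL-6, hyper-interleukin-6, is a designer cytokine in which interleukin-6 is fused to its soluble receptor. In 4 libraries, the GFP group, the virus is labelled AAV2-GFP and carries green fluorescent protein. Batch 1 holds 3 HIL6 and 3 GFP libraries, and batch 2 holds 2 HIL6 libraries and 1 GFP library. What the batch number stands for, the age, sex and strain of the mice, the promoter that drives the transgene and whether each library is 1 animal are not given in the sources used. The p-values therefore speak only of the spread among the libraries, which may be technical.

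Intermediate filaments are rope-like polymers of the cytoskeleton. Gfap encodes glial fibrillary acidic protein, the main filament protein of mature astrocytes, and its level in tissue is widely used as a marker of astrocyte reactivity. Vim encodes vimentin, which co-polymerises with Gfap protein in immature and reactive astrocytes and also builds the filaments of endothelial, ependymal and mesenchymal cells. Nes encodes nestin and Synm encodes synemin, large proteins that do not form filaments alone and need a partner such as vimentin. Nestin is known from neural progenitors, endothelial cells and reactive astrocytes. Signalling through gp130 and the transcription factor STAT3, which interleukin-6 cytokines use, is a known activator of Gfap transcription.

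Bases near an annotated transcript start of each of the 4 genes are shown because Gfap parted from the other members in the measurements that follow. The sequences are RefSeq's, on build GRCm38.p6, and are read 5′ to 3′ on the strand of the gene. Gfap lies at chr11:102887336-102900912 on the minus strand (ENSMUSG00000020932), Vim at chr2:13573927-13582826 on the plus strand (ENSMUSG00000026728), Nes at chr3:87971078-87980451 on the plus strand (ENSMUSG00000004891) and Synm at chr7:67730160-67759742 on the minus strand (ENSMUSG00000030554), all by GENCODE M21 on GRCm38, the assembly called mm10. Capitals mark letters of 4 motifs searched on both strands in windows of 300 bases around each RefSeq transcript start: TTCNNNGAA (the core of STAT sites), TATAAA (the TATA box that positions transcription starts), CCAAT (the box bound by NF-Y) and the GC box bound by Sp1 factors, which reads GGGCGG. The motifs were picked after the windows had been read, the matches found do not overlap each other, and a match is a description of letters only.
Gfap, chr11:102897213-102897450: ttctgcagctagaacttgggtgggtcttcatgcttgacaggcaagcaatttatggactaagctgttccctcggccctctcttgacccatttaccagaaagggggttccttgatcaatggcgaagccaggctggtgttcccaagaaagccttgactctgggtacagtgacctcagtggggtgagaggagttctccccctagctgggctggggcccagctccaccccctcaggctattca
Gfap, the next bases to the transcript start and past it, chr11:102897184-102897212: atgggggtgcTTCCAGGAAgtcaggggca
Vim, around its TATA letters, chr2:13574267-13574296: tcctaacagtgtTATAAAagcagcgccctt
Nes, chr3:87970843-87971077: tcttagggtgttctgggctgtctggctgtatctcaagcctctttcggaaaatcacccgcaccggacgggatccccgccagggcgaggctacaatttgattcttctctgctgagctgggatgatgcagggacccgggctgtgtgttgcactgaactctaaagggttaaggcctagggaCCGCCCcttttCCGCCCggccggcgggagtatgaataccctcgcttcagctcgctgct
Synm, chr7:67759743-67759992: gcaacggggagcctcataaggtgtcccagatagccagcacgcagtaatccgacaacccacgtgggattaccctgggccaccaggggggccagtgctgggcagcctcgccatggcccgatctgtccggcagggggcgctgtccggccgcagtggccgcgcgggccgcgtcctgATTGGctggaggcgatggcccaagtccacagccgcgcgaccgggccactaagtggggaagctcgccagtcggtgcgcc
The Gfap window held TTCCAGGAA, starting at position -2 from the transcript start, and none of the other 3 windows held TTCNNNGAA. This motif is in 8.3% of the 32851 RefSeq promoter windows of the same length. A well-studied STAT3 site of the Gfap gene lies further upstream and outside the window. The Vim window held TATAAA at position -32, found in 13.6% of windows, and CCAAT letters at positions -196 and -94, found in 37.4%. The Nes window held the GC box, in 35.7% of windows, at positions -73 and -62. The Synm window held CCAAT letters at position -78. Of the sequences shown, the 29 bases around the Gfap motif reach 17 bases into an annotated exon and the 30 bases of Vim lie in an exon of a longer Vim transcript. The upstream stretches of Gfap, Nes and Synm lie outside the annotated exons of their own gene. That of Gfap is upstream of the transcript start used but inside the GENCODE span of Gfap, whose 5′ end is at 102900912.

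Values are FPKM, fragments scaled to transcript length and to the library's total, as deposited, so levels of different genes can be set side by side. The order of the levels was Gfap, Vim, Synm, Nes in 9 of 9 libraries. None of the 4 genes was at 0 in any library. Read from the spacing of low values, the libraries held 31.9 to 46.3 scaled fragments in units of 1e6. For the longest coding transcript that depth puts roughly 4019 to 53826 fragments behind a Gfap value, 1148 to 2460 behind Vim, 2378 to 4685 behind Synm and 304 to 745 behind Nes. Counting error alone was then at most 1.58% for Gfap, 2.95% for Vim, 2.05% for Synm and 5.74% for Nes, below the spread between libraries for every member. These figures cover counting error only.

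The punches carried markers of the medulla and of astrocytes. Tph2, the serotonin-synthesis enzyme of raphe neurons, was at 11.9 to 46.5 FPKM in HIL6 and 21.7 to 49.98 FPKM in GFP libraries. HIL6 library 1 and GFP library 2 were lowest in Tph2 in their groups. HIL6 library 4 and GFP library 1 were highest in the pituitary hormone gene Prl, at 10.98 FPKM and 35.1 FPKM. Of the tissue lists, medulla and raphe genes were above 0 in log2 fold change in 6 of 13 tested (median -0.0010), forebrain genes in 3 of 3 (median 0.48), cerebellum genes in 3 of 6 (median -0.063) and pituitary genes in 0 of 3 (median -0.69), none past adjustment. The Gfap fold change, the Gfap differences from its partners and the batch difference of Nes are given without the lowest-Tph2 and highest-Prl libraries too. The correlations and the gene lists rest on all 9 libraries. Endothelial cells, which also use Vim and Nes, were present, with the gene Cldn5 at 23.8 to 38.9 FPKM in HIL6 and 26.0 to 36.2 FPKM in GFP libraries. The ependymal gene Foxj1 was at 13.5 to 16.2 FPKM in HIL6 and 13.7 to 17.6 FPKM in GFP libraries. Of 12 ependymal and choroid plexus genes, Foxj1 included, 7 passed the filter of a mean of 0.5 FPKM. The 12 summed to 19.3 to 30.6 FPKM in HIL6 and 22.2 to 35.4 FPKM in GFP libraries. Foxj1 was a large part of that sum, so the presence of ependymal cells rests mainly on this gene.

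Gfap was at 256.9, 328, 393, 278 and 564 FPKM in HIL6 libraries 1 to 5, against 122, 41.7, 227 and 73.5 FPKM in GFP libraries 1 to 4. Every HIL6 library stood above every GFP library, and the nearest were HIL6 library 1 and GFP library 3. The mean was 364 ± 123 FPKM (SD, n = 5) in HIL6 and 116 ± 81.1 FPKM (SD, n = 4) in GFP libraries. By level Gfap ranked between 79 and 279 among the 17187 genes in HIL6 libraries, and between 297 and 2163 in GFP libraries. The spread within the groups was large as well. The highest GFP library held 5.44 times the FPKM of the lowest, and the highest HIL6 library 2.19 times that of the lowest.

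The log2 fold change of Gfap was 1.86 ± 0.44 (SE), with a 95% interval of 0.88 to 2.84, from limma on log2(FPKM + 0.5) with batch as a term. Of 13958 genes tested, 6 had a larger log2 fold change, and Gfap had the 28th smallest p. Gfap did not pass Benjamini-Hochberg adjustment over all genes (limma, unadjusted p = 0.00184, adjusted p = 0.897). No gene did (0% of 13958), while 543 genes (3.89%) had an unadjusted p under 0.05 by limma, 2.48% higher and 1.41% lower in HIL6. Groups without overlap and higher in HIL6 were found for 74 genes, 0.53% of those tested. An exact permutation of the group labels within batches, two-sided over 60 arrangements, gave p = 0.0167 for Gfap, the smallest that design can give. Gfap also had a residual spread, after group and batch, that only 1.06% of genes exceeded. A linear model of Gfap alone with batch, which borrows no spread from other genes, gave 1.86 ± 0.56 (SE; 95% interval 0.49 to 3.22).

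The difference had the same sign in both batches. Within batch 1 the mean Gfap level was 326 ± 68.1 FPKM in HIL6 and 130.4 ± 92.99 FPKM in GFP libraries (SD, n = 3 each), a log2 difference of 1.61. The exact permutation p within batch 1 was 0.1, the smallest that 3 against 3 allows. Within batch 2 the HIL6 libraries 4 and 5 were at 278 and 564 FPKM and the only GFP library at 73.5 FPKM, a log2 difference of 2.42 with no error for the GFP side. The treatment by batch interaction was 0.82 ± 0.96 (SE) on the log2 scale, with adjusted p = 1.0 by limma. At 0.05 on adjusted p, 0.0143% of genes were called for this interaction, none of them a filament member, and 2.13% had an unadjusted p under 0.05. GFP library 2 was lowest in Gfap and also lowest in the astrocyte genes Aqp4 (36.9 FPKM) and Aldh1l1 (13.7 FPKM). Without it the log2 fold change was 1.47 ± 0.36 (SE), and without GFP library 3, the highest of the group, 2.25 ± 0.34. Leaving out the lowest-Tph2 library of each group gave 1.63 and leaving out the highest-Prl library of each group gave 2.07.

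**Figure D1:**
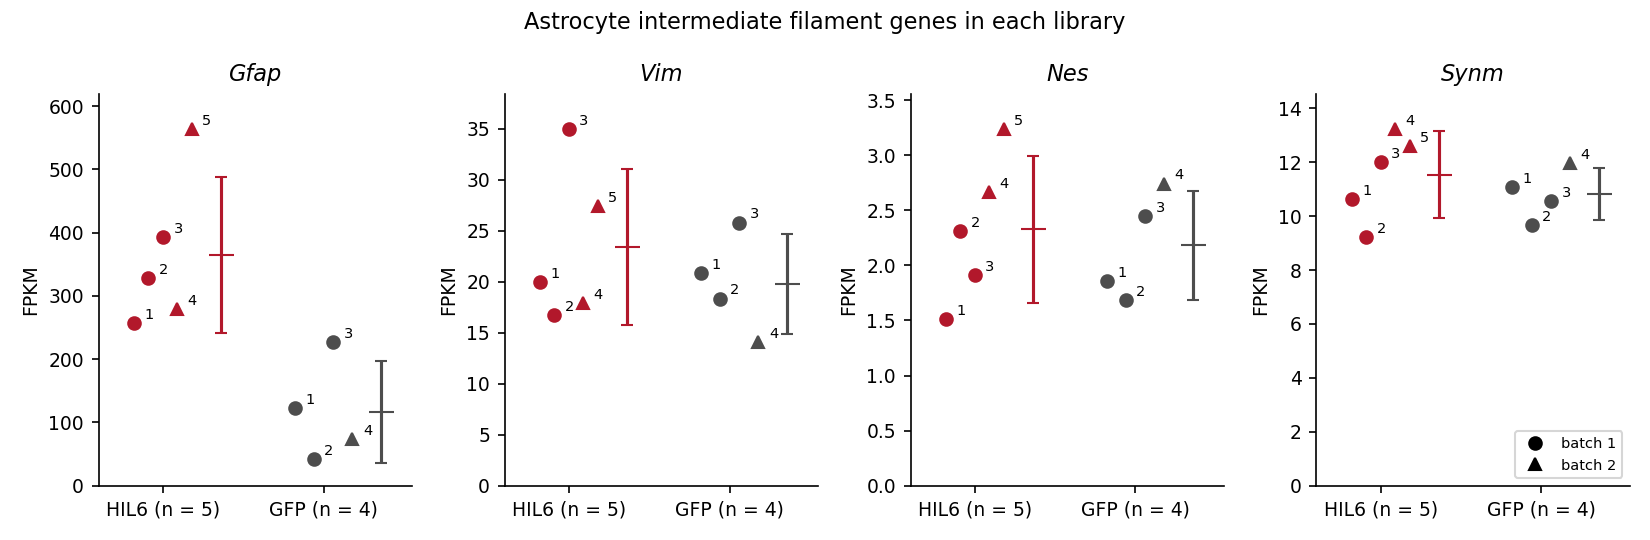
FPKM (vertical axes, from 0) of Gfap, Vim, Nes and Synm in each library, HIL6 on the left and GFP on the right of each panel, with the replicate number beside each point, circles for batch 1 and triangles for batch 2, and the mean with its SD beside the points. Gfap separates the groups, with 257 FPKM as the lowest HIL6 value and 227 FPKM as the highest GFP value, while the groups overlap for Vim, Nes and Synm.

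Vim was at 19.9, 16.7, 34.97, 17.9 and 27.4 FPKM in HIL6 libraries 1 to 5, against 20.8, 18.3, 25.8 and 14.1 FPKM in GFP libraries 1 to 4. HIL6 libraries 3 and 5 stood above all GFP libraries, and the other 3 HIL6 libraries lay inside the GFP range. The mean was 23.4 ± 7.68 FPKM (SD, n = 5) in HIL6 and 19.8 ± 4.88 FPKM (SD, n = 4) in GFP libraries. The log2 fold change was 0.25 ± 0.22 (SE), with a 95% interval of -0.25 to 0.75 (limma, adjusted p = 0.999; exact permutation p = 0.4). Within batch 1 the log2 difference was 0.081, and within batch 2, against the lowest of all Vim values in GFP library 4, it was 0.63. Without HIL6 library 3 the log2 fold change was 0.081, and without GFP library 3 it was 0.36.

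Synm was the steadiest member, with a coefficient of variation of 11.9% over the 9 libraries, against 64.9% for Gfap. It was at 10.7, 9.21, 12.004, 13.2 and 12.6 FPKM in HIL6 libraries 1 to 5, against 11.1, 9.68, 10.6 and 11.98 FPKM in GFP libraries 1 to 4. The groups overlapped, with HIL6 library 2 lowest and HIL6 library 4 highest of all. The mean was 11.5 ± 1.61 FPKM (SD, n = 5) in HIL6 and 10.8 ± 0.96 FPKM (SD, n = 4) in GFP libraries. The log2 fold change was 0.045 ± 0.082 (SE), with a 95% interval of -0.14 to 0.23 (limma, adjusted p = 0.999; exact permutation p = 0.55).

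Nes, the least abundant member, was at 1.51, 2.31, 1.91, 2.67 and 3.24 FPKM in HIL6 libraries 1 to 5, against 1.86, 1.69, 2.44 and 2.74 FPKM in GFP libraries 1 to 4. The groups overlapped, with HIL6 library 1 below and HIL6 library 5 above every GFP library. The mean was 2.33 ± 0.67 FPKM (SD, n = 5) in HIL6 and 2.18 ± 0.49 FPKM (SD, n = 4) in GFP libraries. The log2 fold change was -0.0100 ± 0.13 (SE), with a 95% interval of -0.31 to 0.29 (limma, adjusted p = 0.999; exact permutation p = 0.933).

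Nes differed between the batches. The 3 libraries of batch 2 were at 2.67, 3.24 and 2.74 FPKM, above the highest of batch 1, at 2.44 FPKM. The log2 difference of batch 2 over batch 1 was 0.47 ± 0.14 (SE), with limma adjusted p = 0.039, at a threshold that 22.5% of all genes passed, so 1 of 4 members is near the background. The call was lost without GFP library 1 (adjusted p = 0.0592), GFP library 2 (0.056), GFP library 4 (0.141) and HIL6 libraries 1 (0.07), 3 (0.0658), 4 (0.0889) and 5 (0.132), and was kept without GFP library 3 (0.0224) and HIL6 library 2 (0.0338). The log2 difference itself stayed between 0.40 and 0.53 over these 9 fits, while the share of all genes called fell to 0.208% without GFP library 4, 6.86% without HIL6 library 4 and 12.1% without HIL6 library 5. Leaving out the lowest-Tph2 library of each group gave a log2 difference of 0.36 with adjusted p = 0.0853, and leaving out the highest-Prl libraries gave 0.51 with adjusted p = 0.129 (limma). Synm was higher in batch 2 by 0.25 ± 0.086 (SE) with limma adjusted p = 0.0664, which became 0.0424 without HIL6 library 3. Gfap and Vim differed by -0.012 ± 0.46 and -0.25 ± 0.24 (SE) between batch 2 and batch 1, with limma adjusted p = 0.99 and 0.481.

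**Figure D2:**
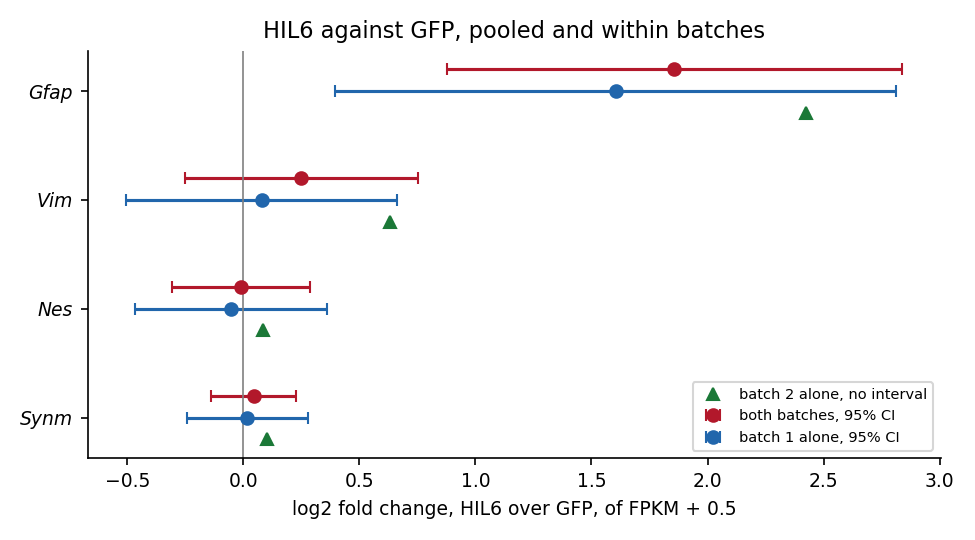
Log2 fold change of HIL6 over GFP (horizontal axis, log2 of FPKM + 0.5) for each filament gene, with 95% intervals from limma over both batches and in batch 1 alone, and the plain difference in batch 2, where 1 GFP library allows no interval. Gfap lies at 1.86 with an interval above 0, and the intervals of Vim, Nes and Synm hold 0.

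Whether the difference was larger for Gfap than for its partners was tested on the difference between Gfap and each partner within a library, on the log2(FPKM + 0.5) scale. Gfap minus Vim was 3.65, 4.25, 3.47, 3.92 and 4.34 in HIL6 libraries 1 to 5, against 2.53, 1.16, 3.11 and 2.34 in GFP libraries 1 to 4. The groups did not overlap. This difference was larger in HIL6 by 1.61 ± 0.43 (SE, from a linear model with batch), with a 95% interval of 0.54 to 2.67. Gfap minus Nes averaged 6.98 ± 0.35 (SD, n = 5) in HIL6 and 5.19 ± 0.96 (SD, n = 4) in GFP libraries, also without overlap, and was larger in HIL6 by 1.87 ± 0.46 (SE; 95% interval 0.74 to 2.99). Gfap minus Synm averaged 4.87 ± 0.44 (SD, n = 5) in HIL6 and 3.10 ± 1.01 (SD, n = 4) in GFP libraries, and was larger in HIL6 by 1.81 ± 0.53 (SE; 95% interval 0.51 to 3.12). Here HIL6 library 4, at 4.34, fell just under GFP library 3, at 4.36. Each of the 3 differences gave an exact permutation p = 0.0167 within batches, the smallest that 60 arrangements can give, and 0.0167 after adjustment over the 3. They share the Gfap values, so they are not 3 independent tests. Within batch 1 they were 1.52, 1.66 and 1.59 for Vim, Nes and Synm, each with exact p = 0.1, the smallest possible there, and within batch 2 they were 1.79, 2.34 and 2.32. Without the lowest-Tph2 library of each group they were 1.34, 1.61 and 1.61, each with exact p = 0.0556, the smallest that 18 arrangements can give. Without the highest-Prl library of each group they were 1.75, 2.07 and 2.01, each with exact permutation p = 0.05, the smallest that 20 arrangements can give. Gfap minus Synm also missed 0.05 without HIL6 library 1 (1.95), 2 (1.78) or 3 (1.81), with exact permutation p = 0.0667 each. Without GFP library 4, the only one of its batch, all 3 differences equal those of batch 1.

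Seen as shares, Gfap made up 88.9% to 92.9% of the summed FPKM of the 4 genes in HIL6 libraries, and 58.4% to 85.4% in GFP libraries. The FPKM ratio of Gfap to Vim was 11.2 to 20.6 in HIL6 libraries, against 2.28 to 8.80 in GFP libraries. The 3 partners together summed to 37.3 ± 8.52 FPKM (SD, n = 5) in HIL6 and 32.8 ± 4.56 FPKM (SD, n = 4) in GFP libraries, and these sums overlapped. Among the GFP libraries the share was lowest in library 2, where Vim made up 25.7% of the sum, and highest in library 3, where Vim made up 9.70%. The Gfap share had an SD of 1.92 percentage points in HIL6 and 11.5 in GFP libraries, a difference in spread that was not tested.

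**Figure D3:**
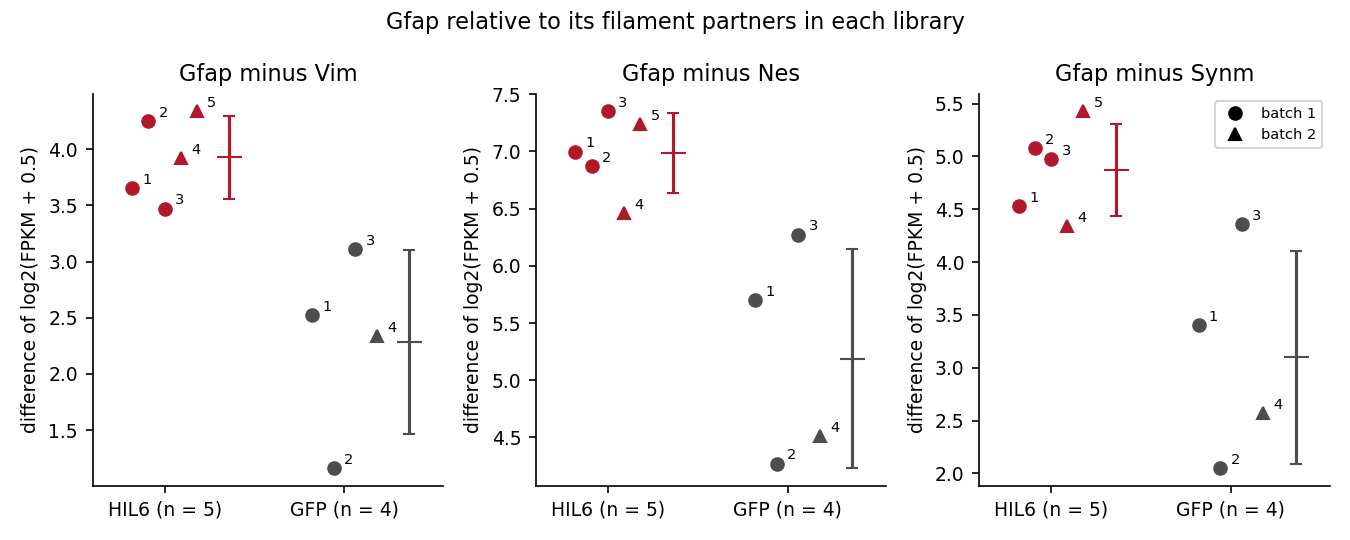
Difference of log2(FPKM + 0.5) between Gfap and Vim, Nes or Synm (vertical axes, not starting at 0) in each library, HIL6 left of GFP, with replicate numbers, circles for batch 1, triangles for batch 2, and the mean with its SD. The HIL6 libraries lie higher in each panel, and the only overlap is HIL6 library 4 with GFP library 3 for Synm.

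Before group and batch were taken out, the members did not follow each other closely from library to library. Over 9 libraries Gfap and Vim had Pearson's r = 0.57, the highest Pearson value of the 6 pairs, and Spearman's rho = 0.47 (exact permutation p = 0.104 and 0.213, adjusted over the 6 pairs 0.429 and 0.538). Without GFP libraries 2 and 4, the libraries farthest from the median of Gfap, r was 0.38. Gfap and Nes had r = 0.35 and rho = 0.35 (exact permutation p = 0.352 and 0.359), and Gfap and Synm r = 0.34 and rho = 0.42 (exact permutation p = 0.37 and 0.27), each with an adjusted p of at least 0.538. Nes and Synm had r = 0.53 and rho = 0.53 (exact permutation p = 0.143 and 0.148; adjusted 0.429 and 0.538). Vim had r = 0.25 and rho = 0.27 with Synm (exact permutation p = 0.511 and 0.493) and r = -0.033 and rho = -0.083 with Nes (exact permutation p = 0.933 and 0.843). No pair passed adjustment. Once group and batch were taken out, the residuals of Gfap had r = 0.76 with those of Nes, 0.64 with Vim and 0.36 with Synm. Those of Vim had r = 0.70 with Synm and 0.33 with Nes, and those of Nes and Synm had r = -0.19. These values are given as a description over the same 9 libraries, which differ in punch makeup and depth. All genes of a library share its makeup and depth. Among the other 13957 genes, ranked by their correlation with Gfap, Vim came 558th, Nes 2054th and Synm 2178th.

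The genes with a pattern most like Gfap over the 9 libraries, by Pearson's r of log2(FPKM + 0.5), were C4b (0.96), Rhoj (0.94), Daam2 (0.93), Fxyd1 (0.92) and Csf1 (0.91). C4b encodes complement component 4, and was at 34.8 ± 14.3 FPKM (SD, n = 5) in HIL6 and 4.85 ± 3.003 FPKM (SD, n = 4) in GFP libraries. It followed Gfap within the groups too, with r = 0.97 between residuals after group and batch. Csf1, the growth factor that maintains microglia, was at 13.9 ± 2.02 FPKM in HIL6 and 9.98 ± 1.70 FPKM in GFP libraries, and Fxyd1, a regulator of the sodium pump, at 23.9 ± 10.7 FPKM in HIL6 and 11.8 ± 7.81 FPKM in GFP libraries. C4b, Csf1 and Fxyd1 did not pass adjustment over all genes (limma, adjusted p = 0.18 for C4b and 0.999 for Csf1 and Fxyd1). Nearest to Vim were Plat, the tissue plasminogen activator (0.94), Cd44, a hyaluronan receptor (0.94), and Cmtm3 (0.93). Nearest to Nes were Atxn7 (0.97), Atxn3 (0.97) and AW549877 (0.96), and nearest to Synm were Antxr1, Mtrf1l and Zscan20 (0.95 each). With so many genes and 9 libraries, correlations of this size are found for each member, and they are given as a description.

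The rest of the intermediate filament family did not share the Gfap pattern. Of 20 other family genes looked for, 19 were in the table and 15 passed the filter of a mean of 0.5 FPKM. Of these 5 had a log2 fold change above 0, with a median of -0.043, where 48.9% of all genes tested were above 0 and their median was -0.0026. None passed adjustment over all genes. Nefm, a neurofilament subunit of neurons, had the smallest p, with a log2 fold change of -0.14 (limma, unadjusted p = 0.041, adjusted p = 0.999), and Prph, a filament of peripheral and motor neurons, was at -0.51 (adjusted p = 0.999). The summed FPKM of the family genes was 1360 to 1654 in HIL6 and 1526 to 1712 in GFP libraries. Genes for linkers, chaperones and modifiers of filaments, such as plectin (Plec) and alpha-B crystallin (Cryab), were above 0 in 8 of 17 tested with a median of -0.021. Genes for kinases and phosphatases that act on filament proteins were above 0 in 7 of 16 with a median of -0.0021. No gene of either list had an unadjusted p under 0.05 by limma, against 3.89% of all genes tested.

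Regulators of Gfap transcription were above 0 in 16 of 30 genes, with a median of 0.016. Socs3, the feedback inhibitor of gp130 signalling, was the only one with an unadjusted p under 0.05 (log2 fold change 0.59, limma adjusted p = 0.999). Among all genes tested, 3.89% had an unadjusted p under 0.05 by limma, so 1 of 30 is near the background. Stat3 was at 0.24 and Nfib, a nuclear factor I gene of astrocyte development, at 0.18, both with limma adjusted p = 0.999. Reactive astrocyte genes, a list that holds none of the 4 members, were above 0 in 14 of 20 tested with a median of 0.19. In 4 of the 20 every HIL6 library was above every GFP library, against 0.53% of all genes tested, and none passed adjustment over all genes. The leading gene was Aspg, with a log2 fold change of 0.98 (limma, adjusted p = 0.18), followed by Serpina3n, a protease inhibitor, at 1.18 (limma, adjusted p = 0.29).

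**Figure D4:**
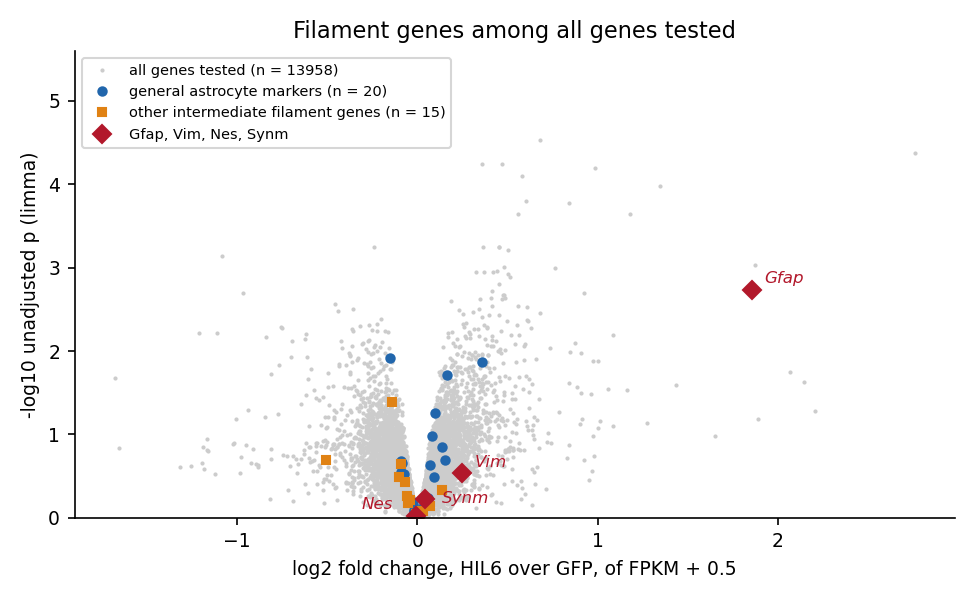
Log2 fold change of HIL6 over GFP (horizontal axis) against -log10 of the unadjusted limma p (vertical axis) for 13958 genes, with the filament genes as red diamonds, 20 general astrocyte markers as blue circles and 15 other intermediate filament genes as orange squares. Gfap stands at 1.86, away from both sets, while Vim, Synm and Nes lie among them.

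General astrocyte markers, which include channels, transporters and enzymes that astrocytes carry at rest, were above 0 in 10 of 20 genes with a median of 0.011. Their summed FPKM was 4210 to 4696 in HIL6 and 4140 to 4563 in GFP libraries. Aqp4, the water channel of astrocyte endfeet, was at 43.3 to 63.6 FPKM in HIL6 and 36.9 to 49.6 FPKM in GFP libraries (log2 fold change 0.36; limma, adjusted p = 0.999), and Aldh1l1, a folate enzyme, at 15.6 to 20.8 FPKM in HIL6 and 13.7 to 19.7 FPKM in GFP libraries. Relative to the mean log2 level of these 20 markers, Gfap was at 1.38 to 2.38 in HIL6 and at -1.11 to 1.22 in GFP libraries, a difference of 1.82 ± 0.53 (SE; exact permutation p = 0.0167, the smallest that 60 arrangements can give). On this scale, which was chosen after the data were seen, Vim differed by 0.22 ± 0.26, Nes by -0.043 ± 0.13 and Synm by 0.012 ± 0.062 (SE), with exact permutation p = 0.433, 0.7 and 0.9. The marker mean itself lay between 6.51 and 6.76 in all libraries. The test of Gfap relative to it therefore largely repeats the test of Gfap alone. In bulk tissue, fewer cells of a type and less RNA per cell cannot be told apart.

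Among cell types that also use Vim or Nes, endothelial genes were above 0 in 5 of 15, at a median of -0.033, and summed to 196 to 213 FPKM in HIL6 and 195 to 219 FPKM in GFP libraries. Mural cell genes, of pericytes and smooth muscle, were above 0 in 6 of 11 with a median of 0.0062, fibroblast genes in 9 of 12 with a median of 0.052, and progenitor genes in 8 of 14 with a median of 0.00098. Ependymal and choroid plexus genes were above 0 in 0 of 7 tested with a median of -0.28, at a sum of 19.3 to 30.6 FPKM in HIL6 and 22.2 to 35.4 FPKM in GFP libraries. Microglia genes lay in the direction of Gfap: 16 of 16 were above 0 with a median of 0.39, in 7 of them every HIL6 library was above every GFP library (0.53% of all genes), 13 had an unadjusted p under 0.05 by limma (2.48% of all genes, higher in HIL6) and 0 passed adjustment. They summed to 271 to 352 FPKM in HIL6 and 224 to 263 FPKM in GFP libraries, with no marker at 0 in all libraries. Oligodendrocyte genes were above 0 in 13 of 14 with a median of 0.12, and oligodendrocyte precursor genes in 4 of 9 with a median of -0.040. Neuron genes were above 0 in 1 of 14 with a median of -0.034. The part of these cell types in the Gfap difference was not tested.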

How the data were processed

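Poly(A) RNA from medullary brainstem punches was sequenced by the submitters after preparation with a strand-specific kit, per the labels' protocols. The authors deposited 1 table of FPKM values with 1 column per library. kallisto, DESeq2 and the build mm10 are named in the submitters' processing notes; their versions, the annotation and the scaling are not stated in what was used. The program kallisto divides fragments between transcripts by likelihood, and Gfap, Vim, Nes and Synm have 3, 6, 3 and 5 annotated transcripts. The authors' strand setting is not given, and Gfap and Synm overlap genes on the other strand.

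The 13958 genes averaging 0.5 FPKM or more were tested on log2(FPKM + 0.5), a scale that understates changes of low genes. limma 3.58.1 in R 4.3.3 was used with batch as a term, a mean-variance trend, two-sided p-values adjusted by Benjamini-Hochberg across the tested genes, a threshold of 0.05 and residual df of 6. Means and SDs of groups do not account for batch. Single values were also tested by exact permutation of groups within batches (numpy 2.4.6, scipy 1.17.1). Depth was estimated from low values of genes with 1 transcript, of which 96.7% to 98.2% were whole multiples of a step within 0.05, with step and length offset chosen to raise that share. The procedures were tested on simulated data. No libraries were identical. The genes named by likeness are the 5 closest to Gfap and the 3 closest to each other member, and of each list at most the 3 with the smallest p, beside Aqp4, Aldh1l1, Cldn5 and Foxj1. Tph2, Prl, Plec and Cryab were named after their values were seen. The members and the 19 gene lists were chosen with earlier results of these data known.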

Additional observations from a re-analysis of the deposited data

How the results depend on the processing

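The Gfap log2 fold change kept its sign under 23 alternatives, between 1.47 and 2.25 for replicates left out, and never passed adjustment over all genes (lowest limma adjusted p = 0.0979, with array weights). Vim kept its sign under the same alternatives, at 0.081 to 0.42 with replicates left out. Nes, near 0, changed sign without the batch term (0.061), with array weights (0.020), without the lowest-Tph2 library of each group (0.023) and without some replicates (-0.078 to 0.077). Synm changed sign without HIL6 replicate 3, with a range of -0.0078 to 0.11 over replicates left out. The larger Gfap minus Vim, Nes and Synm values in HIL6 kept their sign throughout. They were 1.52, 1.66 and 1.59 in batch 1 alone (exact permutation p = 0.1) and 1.34, 1.61 and 1.61 without the lowest-Tph2 libraries (exact permutation p = 0.0556), designs that cannot give a smaller p. With replicates left out they were 1.26 to 1.89, 1.53 to 2.18 and 1.46 to 2.20, with exact permutation p between 0.0333 and 0.1. The count of genes past adjustment was 9 with array weights, and 0 to 2 with replicates left out (2 without HIL6 replicate 2). The count of members called between batches was 0 with no filter (16.1% of all genes called), 2 with array weights (38.2%), 0 without the lowest-Tph2 (19.4%) or highest-Prl libraries (0.488%) and 0 to 1 with replicates left out, and the cause was not tested.

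With the replicate number as a block in place of batch, the Gfap log2 fold change was 1.68 (limma, adjusted p = 0.641), and the differences from Vim, Nes and Synm were 1.54, 1.73 and 1.63 (exact permutation p = 0.125, the smallest that 16 arrangements allow). Deviations of same-numbered libraries from their group means correlated at 0.133, 0.143, 0.269 and 0.457, but within batch 1 at 0.0194, -0.106 and 0.27, so the numbers were not taken to pair the libraries. Batch 2 holds a single GFP library, so no error can be given for its GFP side. Counting error at this depth was at most 1.58% for Gfap, against a coefficient of variation of 33.9% between HIL6 and 69.8% between GFP libraries.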

Other observations

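Some gene groups followed the filament genes between libraries of the same group and batch, as a description over 9 libraries that differ in punch makeup and depth. For each gene only the highest of the 19 lists are named. The residuals of Gfap had r = 0.96 with those of the mean level of filament linkers and chaperones, 0.84 with oligodendrocyte precursor genes, 0.78 with regulators of Gfap transcription and 0.77 with general astrocyte markers. For Vim these values were 0.62, 0.87, 0.78 and 0.63. The residuals of Vim had r = 0.94 with reactive astrocyte genes, 0.87 with oligodendrocyte precursor genes, 0.83 with microglia genes and 0.82 with oligodendrocyte genes, against 0.63, 0.84, 0.24 and 0.50 for Gfap. HIL6 library 3 was highest in Vim, at 34.97 FPKM, and second to HIL6 library 5 in Gfap, at 393 FPKM.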
